A study of Mus musculus with 8 samples.

Results

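The interleukin 1 and interleukin 18 system was described through 8 genes: the ligands Il1a, Il1b and Il18, the soluble inhibitors Il1rn and Il18bp, the receptor chains Il1r1 and Il1rap, and the decoy receptor Il1r2. They were chosen by gene symbol from the 54532 genes of the deposited count table, with no cut on a value, by a list drawn up when the counts of these libraries in all 4 groups were already known. Levels and differences are therefore given as descriptions, and adjusted p-values come from a fit over all tested genes and support nothing about the choice of genes. The filter on low counts kept 7 of the 8 genes. Il1r1, with 48 reads over the 8 libraries, did not pass it, and Il1a passed it only through the groups given LPS, where it is high.

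The libraries hold RNA of mouse BMDMs, macrophages derived from bone marrow in culture. Control cells received no stimulus. The LPS group received lipopolysaccharide, a bacterial cell wall product sensed by Tlr4, at 100 ng/ml for 4 h. The IL-4 group was kept with 20 ng/ml of interleukin 4, a signal of allergic and parasite immunity, for 24 h. In the IL-4 then LPS group the same 24 h exposure to IL-4 at 20 ng/ml was ended by a wash, and LPS at 100 ng/ml followed for 4 h. Each group held 2 libraries, numbered 1 and 3. Mouse strain, age and the number of animals per library are not given in the sources used here, nor whether cells given IL-4 alone also had a wash and the further hours of culture. P-values measure only the spread between these libraries, whose numbers 1 and 3 differed in sex, as given below.

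Il1a and Il1b both bind the receptor Il1r1, which recruits the accessory chain Il1rap and signals through Myd88 to NF-kB. Il1rn, the interleukin 1 receptor antagonist, occupies Il1r1 without recruiting Il1rap, and Il1r2 binds ligand without signalling. Il18 signals through its own receptor pair, Il18r1 and Il18rap, and the secreted protein Il18bp captures it. Il1b and Il18 are made as precursors that caspase 1 cleaves inside inflammasomes. Transcript counts say nothing of that step. Macrophages are a main source of these ligands after bacterial stimuli.

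Counts per library totalled 7924932 to 9431852, and levels are given as CPM, read counts relative to library size, after scaling by the TMM method with factors of 0.786 to 1.252. Reads of mitochondrial genes made up 1.07% to 1.61% of counts. All 8 macrophage markers, such as Adgre1 and Csf1r, were detected in every library, at summed levels of 18015 to 24773 CPM in control, 18378 to 20858 in LPS, 12457 to 17243 in IL-4 and 11627 to 16665 in IL-4 then LPS. The 4 libraries numbered 1 held 2936 to 4465 reads of the female transcript Xist and no read of the Y-linked genes Ddx3y and Eif2s3y. The 4 libraries numbered 3 held no Xist read, 543 to 643 Ddx3y reads and 423 to 477 Eif2s3y reads. The number thus marked cells of a different sex in every group, and for the 8 genes calls are also given from a fit with the number as a term where that fit changed them.

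The sequences before the start sites of the ligands and soluble inhibitors are shown because the results turn on the levels of these 5 genes. Each is the 250 bases before a RefSeq start on GRCm38.p6, read on the gene's strand from 5′ to 3′, with motif matches in capitals. For Il1rn, which has 3 such starts in the RefSeq table, the window of the second start is shown, and gene counts do not tell which start was used.
Il1a, chr2:129309973-129310222, minus strand: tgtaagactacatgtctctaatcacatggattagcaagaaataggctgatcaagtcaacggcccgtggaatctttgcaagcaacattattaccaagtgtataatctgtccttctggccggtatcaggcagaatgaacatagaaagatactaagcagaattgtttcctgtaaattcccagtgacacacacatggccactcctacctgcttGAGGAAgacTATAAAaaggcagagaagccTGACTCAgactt
Il1b, chr2:129371140-129371389, minus strand: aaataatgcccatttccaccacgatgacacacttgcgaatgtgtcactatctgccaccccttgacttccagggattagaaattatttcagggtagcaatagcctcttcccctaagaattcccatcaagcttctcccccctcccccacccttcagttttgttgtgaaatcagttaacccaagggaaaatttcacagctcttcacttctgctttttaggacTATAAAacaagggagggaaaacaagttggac
Il18, chr9:50554450-50554699, plus strand: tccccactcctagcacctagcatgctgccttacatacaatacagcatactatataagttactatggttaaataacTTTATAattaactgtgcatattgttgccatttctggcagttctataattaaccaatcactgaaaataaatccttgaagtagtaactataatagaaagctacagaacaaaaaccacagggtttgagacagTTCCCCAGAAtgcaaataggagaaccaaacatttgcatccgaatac
Il1rn, chr2:24345041-24345290, plus strand: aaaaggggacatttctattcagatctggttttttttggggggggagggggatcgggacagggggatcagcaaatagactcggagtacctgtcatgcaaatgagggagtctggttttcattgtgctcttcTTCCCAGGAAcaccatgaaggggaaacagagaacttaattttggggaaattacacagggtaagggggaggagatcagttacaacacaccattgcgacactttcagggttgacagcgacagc
Il18bp, chr7:102018233-102018482, minus strand: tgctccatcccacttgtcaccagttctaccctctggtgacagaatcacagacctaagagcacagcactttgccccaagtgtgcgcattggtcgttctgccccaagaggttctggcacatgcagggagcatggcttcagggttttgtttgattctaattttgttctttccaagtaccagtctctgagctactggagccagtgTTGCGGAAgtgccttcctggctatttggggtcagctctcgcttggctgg

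Both strands were searched for 8 patterns, and positions count back from the start site. Il1a and Il1b both hold TATAAA, with its first base at -32 and -31, which 12.4% of 32851 RefSeq windows of this length also hold. Il1a also holds TGACTCA at -12, a match to the AP-1 pattern TGANTCA found in 6.75% of windows, and GAGGAA, the core bound by PU.1, at -41, found in 23.3%. Matches to TTCNNNNGAA, a spacing bound by Stat6, the factor that IL-4 activates, stand at -46 in Il18 and at -121 in the Il1rn window. Such matches occur in 5.85% of windows. Of the Il1rn windows not shown, that of the first start holds TGAGTCA, an AP-1 match, at -141 and no other match. That of the third start overlaps the window shown and holds the same TTCCCAGGAA, at -201. Il18 also holds TATAAA on the other strand, read here as TTTATA, at -175. Il18bp holds TTGCGGAA at -49, a match to the C/EBP pattern TTGCNNAA found in 9.56% of windows. The patterns TTCNNNGAA, held by 7.02% of windows, and TTTCNNTTTC, held by 2.98%, had no match in the 5 windows shown. Neither had the decamer bound by NF-kB, held by 7.25%. These matches describe letters only.

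The genes lie on 5 chromosomes of mm10, all are protein-coding, and all 8 have the same start and end in GENCODE M21. Il1a (ENSMUSG00000027399, chr2:129299610-129309972, minus strand) and Il1b (ENSMUSG00000027398, chr2:129364570-129371139, minus strand) are neighbours 54597 bases apart. Il1rn (ENSMUSG00000026981) lies on the same chromosome at chr2:24336853-24351494, plus strand. Il18 (ENSMUSG00000039217) lies at chr9:50554827-50581840, plus strand, and Il18bp (ENSMUSG00000070427) at chr7:102014885-102018690, minus strand. Il1r2 (ENSMUSG00000026073, chr1:40074079-40125231) and Il1r1 (ENSMUSG00000026072, chr1:40225080-40317257) lie 99848 bases apart on the plus strand, and Il1rap (ENSMUSG00000022514) lies at chr16:26581704-26730117, plus strand. The windows shown for Il1rn and Il18bp lie within the spans of those genes. Genes on the opposite strand that also had reads overlap 4 of them, and the sources used here do not say whether counting used strand: Il1bos beside Il1b (181 against 53989 reads over the 8 libraries), Gm14023 beside Il1a (56 against 18019), Bco2 and Tex12 beside Il18 (102 and 25 against 719), and the end of Numa1 beside Il18bp (10688 against 2619). Numa1 reaches Il18bp only up to chr7:102014964, and Bco2 reaches Il18 only up to chr9:50555181. Tex12 lies within Il18 at chr9:50556819-50561325. How many reads fell on shared bases was not counted. Counts of Il18 and Il18bp are uncertain in this respect, by an amount that the totals of the other genes do not measure.

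The plot of levels by library shows all 8 genes on 1 scale.

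**Figure D1:**
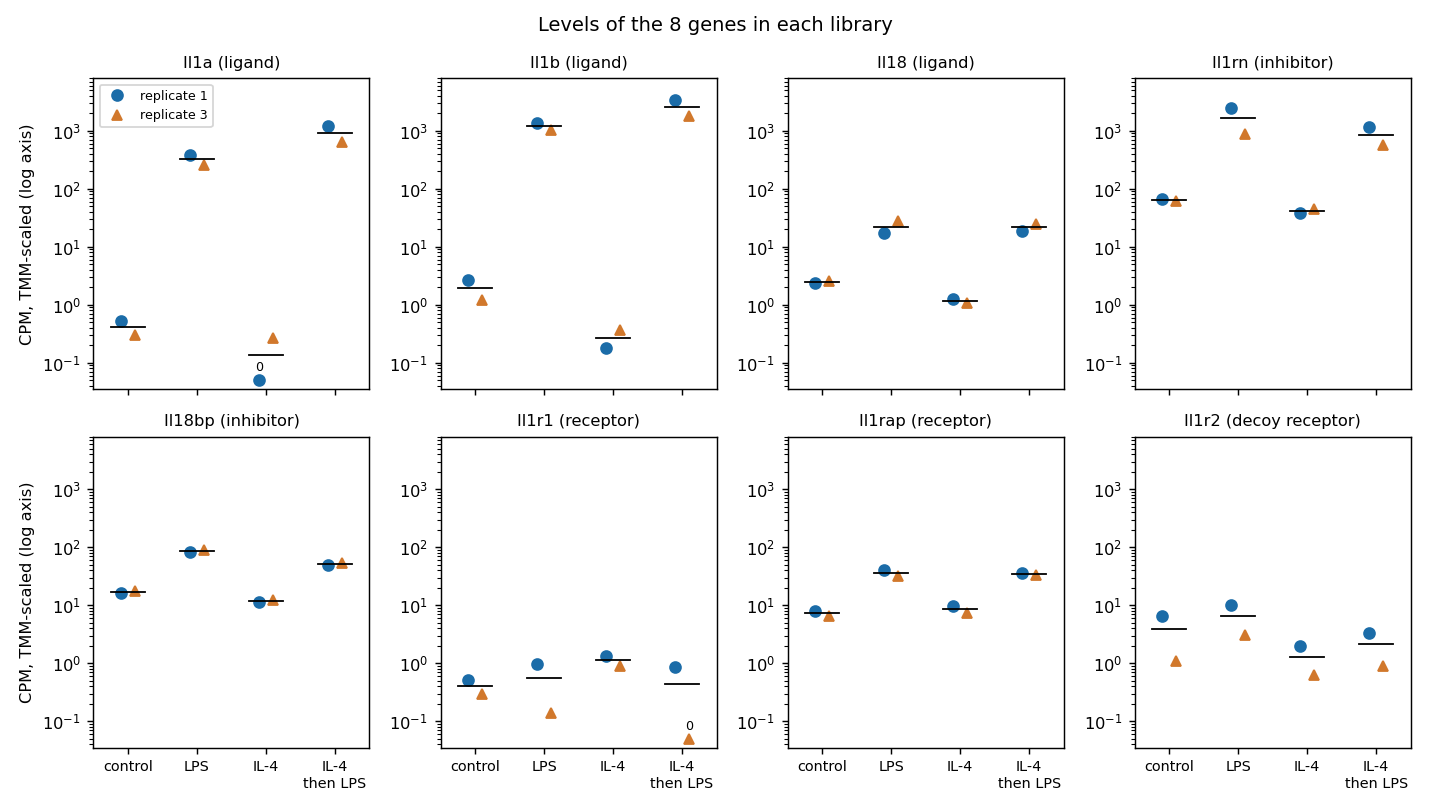
TMM-scaled CPM on a log axis of each of the 8 genes in the 8 libraries, by group, with circles for replicate 1, triangles for replicate 3 and a bar at the mean of the 2 libraries. A library without a read is drawn at the foot of the panel and marked 0. Il1a and Il1b run from under 3 CPM in control and IL-4 to 262 CPM and more in both groups given LPS, with IL-4 then LPS above LPS.

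LPS raised all 3 ligands, both soluble inhibitors and the accessory chain Il1rap in macrophages with and without prior IL-4. These 6 genes were called higher at an adjusted p under 0.05 by the quasi-likelihood test of edgeR, adjusted by Benjamini-Hochberg, in LPS against control, where 21.8% of the 12234 tested genes were called higher and 18.6% lower. The same 6 were called higher in IL-4 then LPS over IL-4, where 20.7% of tested genes were called higher and 18.6% lower. Il1r2 was called in neither. Of all genes called, 53.9% and 52.8% were higher in these comparisons, and 21.2% and 22.5% when libraries were scaled by size alone, where the same 6 genes remained called higher. The median log2 fold change of the 7 tested genes was 3.16 without and 4.19 with prior IL-4, against -0.01 and -0.04 over all tested genes. These comparisons share no library with each other, while IL-4 then LPS against LPS and IL-4 against control each share libraries with both.

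Il1a was nearly silent without LPS. It had 0.519 and 0.297 CPM in control (6 and 3 reads), 390 and 262 CPM in LPS, 0 and 0.272 CPM in IL-4 (0 and 3 reads), and 1210 and 652 CPM in IL-4 then LPS. Each library of a group given LPS lay above each library without it, and both libraries of IL-4 then LPS lay above both LPS libraries. The log2 fold change was 9.57 ± 0.59 (SE, n = 2 against 2) in LPS against control. Against the 3 reads of the IL-4 group, the reads of IL-4 then LPS were 6780-fold more per effective library size (95% exact interval 2319 to 32880, counting error only). That fitted log2 fold change was 12.61, and it ran from 11.67 without IL-4 replicate 1 to 16.01 without IL-4 replicate 3.

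Il1b, the main secreted form, rose with LPS as well. Its levels were 2.68 and 1.19 CPM in control (31 and 12 reads), 1355 and 1018 CPM in LPS, 0.179 and 0.363 CPM in IL-4 (2 and 4 reads), and 3395 and 1766 CPM in IL-4 then LPS. No pair of groups overlapped. The log2 fold change was 9.23 ± 0.53 (SE) in LPS against control, 9.89 without control replicate 1, and 13.15 ± 0.65 in IL-4 then LPS over IL-4. Il1a and Il1b together took 0.398% and 0.198% of all counts in IL-4 then LPS and 0.144% and 0.101% in LPS.

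Il18, constitutive in many cells, rose less steeply. It had 2.42 and 2.57 CPM in control, 17.2 and 27.5 in LPS, 1.25 and 1.09 in IL-4, and 18.5 and 24.7 in IL-4 then LPS. The libraries with LPS lay above those without, and the 2 groups given LPS overlapped. The log2 fold change was 3.16 ± 0.31 (SE) in LPS against control and 4.19 ± 0.33 in IL-4 then LPS over IL-4.

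Il1rn, the receptor antagonist, was the most abundant of the 8 transcripts without LPS and rose with LPS as well. Its levels were 67.2 and 60.7 CPM in control, 2433 and 891 in LPS, 37.8 and 44.7 in IL-4, and 1148 and 575 in IL-4 then LPS. The LPS libraries differed 2.73-fold from each other and those of IL-4 then LPS 2.0-fold, each with replicate 1 higher, so that the 2 groups overlapped. The log2 fold change was 4.70 ± 0.54 (SE) in LPS against control, 3.80 without LPS replicate 1, and 4.38 ± 0.53 in IL-4 then LPS over IL-4.

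Il18bp, the soluble inhibitor of Il18, varied by 1.07-fold to 1.11-fold between the libraries of a group. It had 16.2 and 17.9 CPM in control, 83.0 and 88.6 in LPS, 11.5 and 12.3 in IL-4, and 49.6 and 53.5 in IL-4 then LPS. No pair of groups overlapped, and within each stimulus state the cells given IL-4 lay below those without it. The log2 fold change was 2.33 ± 0.14 (SE) in LPS against control and 2.11 ± 0.14 in IL-4 then LPS over IL-4.

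Among the receptors, Il1rap rose with LPS while the others were scarce. Il1rap had 7.88 and 6.63 CPM in control, 40.2 and 32.5 in LPS, 9.73 and 7.43 in IL-4, and 36.5 and 33.5 in IL-4 then LPS. Its log2 fold change was 2.32 ± 0.21 (SE) in LPS against control and 2.02 ± 0.20 in IL-4 then LPS over IL-4, and the groups with and without prior IL-4 overlapped at rest and under LPS. Il1r1, the signalling receptor, had 6 and 3 reads in control, 7 and 1 in LPS, 15 and 10 in IL-4, and 6 and 0 in IL-4 then LPS. The 25 reads of the IL-4 group were 2.71-fold those of control per effective library size (95% exact interval 1.22 to 6.59, counting error only). In CPM both IL-4 libraries, at 1.34 and 0.907, lay above both control libraries, at 0.519 and 0.297, but LPS replicate 1 lay at 0.980. In IL-4 then LPS, at 0.875 and 0 CPM, both libraries lay below both IL-4 libraries. Those 6 reads were 0.366-fold the reads of IL-4 per effective library size (95% exact interval 0.123 to 0.915, counting error only). All other pairs of groups overlapped. Both orders rest on few reads and were not tested, and the intervals leave out the spread between libraries.

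Il1r2, the decoy receptor, differed between the replicate numbers in every group. It had 6.66 and 1.09 CPM in control, 10.1 and 3.04 in LPS, 1.96 and 0.635 in IL-4, and 3.35 and 0.908 in IL-4 then LPS, with replicate 1 between 3.09-fold and 6.13-fold above replicate 3 in all 4 groups. Its log2 fold change of 0.74 ± 0.92 (SE) in LPS against control had an adjusted p of 0.551 by edgeR's quasi-likelihood test. With the replicate number as a term it was 0.87 ± 0.33, adjusted p = 0.0524. Leaving out control replicate 3 or LPS replicate 1 turned it to -0.07 or -0.36.

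The replicate number also moved with other genes. Il1rap and Il1r1 were higher in replicate 1 in 4 of 4 groups, Il1rap by 1.09-fold to 1.31-fold and Il1r1 on 0 to 15 reads per library. How many of all tested genes kept 1 direction in the 4 groups was not counted. Il18bp was higher in replicate 3 in 4 of 4 groups, by 1.07-fold to 1.11-fold. Il1a, Il1b and Il1rn were higher in replicate 1 in 3 of 4 groups, the exception being IL-4, and Il18 was higher in replicate 3 in 3 of 4. Sex, animal and any other difference carried by the number cannot be told apart.

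Without LPS, Il1b, Il18 and the soluble inhibitors lay lower in the IL-4 libraries than in the control libraries. No gene of the 8 was called in IL-4 against control by edgeR's quasi-likelihood test, where 0.0572% of tested genes were called higher and 0.00817% lower. At an unadjusted p under 0.05 there were 3 of the 7, all with lower values, beside 511 genes higher and 381 lower of the 12234 tested. DESeq2 called 1 of the 7, Il1b, among 109 genes in all. For Il1b, Il18, Il1rn and Il18bp both IL-4 libraries lay below both control libraries, while Il1a had 3 reads in replicate 3 of either group. The share of all tested genes with such an order was not counted, here or in the other comparisons, so non-overlap is description only. The log2 fold changes were -2.80 ± 0.74 (SE) for Il1b, -1.08 ± 0.36 for Il18, -0.63 ± 0.47 for Il1rn and -0.51 ± 0.14 for Il18bp, with adjusted p-values from 0.373 to 0.839.

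With the replicate number as a term, which called 1.5% of tested genes higher and 0.858% lower in IL-4 against control, Il1b was the only one of the 7 called. Its log2 fold change was -2.77 ± 0.50, adjusted p = 0.0264 by edgeR's quasi-likelihood test, and within numbers 1 and 3 it was -3.61 and -1.60. It rests on 43 reads in control and 6 in IL-4, and the log2 value was -2.12 without control replicate 1 and -3.40 without IL-4 replicate 3 in the fit without the term. Il18bp had an adjusted p of 0.0706 with the term. For Il1a, the 3 reads in IL-4 against 9 in control gave a ratio of 0.325 with an exact interval of 0.0566 to 1.30, a difference not detectable at this depth.

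Under LPS, the libraries of cells that had received IL-4 held more Il1a and Il1b and less Il18bp than those of cells that had not. No gene of the 8 was called in IL-4 then LPS against LPS by edgeR's quasi-likelihood test, where 0.049% of tested genes were called higher and 0.0163% lower. At an unadjusted p under 0.05 there were 3 of the 7, Il1a, Il1b and Il18bp, beside 469 genes higher and 571 lower of the 12234 tested. DESeq2 called 2, Il1a and Il18bp, among 119 genes in all. With the replicate number as a term, which called 1.08% of tested genes higher and 1.22% lower, 2 of the 7 were called higher and 1 lower.

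Il1a was 2.85-fold higher after prior IL-4, a log2 fold change of 1.51 ± 0.37 (SE) with an adjusted p of 0.294. With the term it was 1.48 ± 0.17, adjusted p = 0.00485 by edgeR's quasi-likelihood test, and it was 1.63 and 1.31 within numbers 1 and 3. Il1b was 2.17-fold higher, a log2 fold change of 1.12 ± 0.36 with an adjusted p of 0.442. With the term it was 1.06 ± 0.17, adjusted p = 0.0159, and it was 1.32 and 0.79 within the numbers. Neither pair of groups overlapped for these ligands, and leaving out any 1 library kept both differences above 0, at 1.0 to 1.89 for Il1a and 0.57 to 1.52 for Il1b.

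Il18 did not follow the interleukin 1 ligands. Its log2 fold change was -0.05 ± 0.26 (SE), with a 95% interval of -0.66 to 0.56, and the sign differed between numbers 1 and 3.

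Il18bp was 1.66-fold lower after prior IL-4, a log2 fold change of -0.74 ± 0.13 with an adjusted p of 0.144. With the term it was -0.74 ± 0.10, adjusted p = 0.0106 by edgeR's quasi-likelihood test, and within numbers 1 and 3 it was -0.74 and -0.73. Il1rn had a log2 fold change of -0.95 ± 0.47, adjusted p = 0.634, or 0.204 with the term. Its value within the numbers was -1.08 and -0.63, and it was -0.05 without LPS replicate 1, the library with 2433 CPM. Il1rap differed by -0.06 ± 0.19, with a 95% interval of -0.50 to 0.39. Il1r2 had a log2 fold change of -1.64 ± 1.01, adjusted p = 0.717, or -1.65 ± 0.38 with an adjusted p of 0.0664 with the term.

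**Figure D2:**
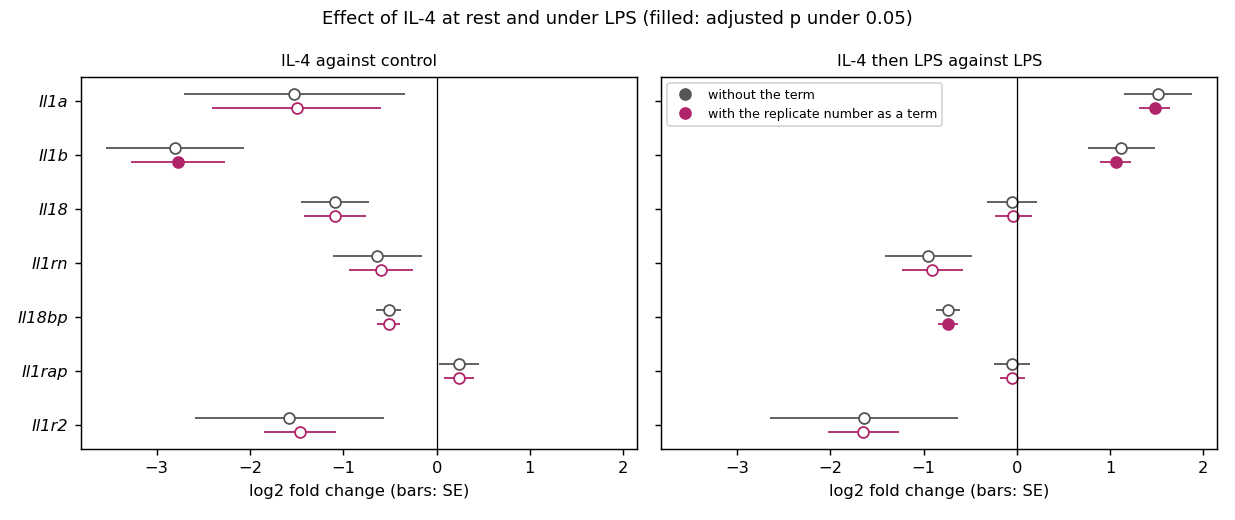
Log2 fold change of the 7 tested genes with the SE as bars, for IL-4 against control on the left and IL-4 then LPS against LPS on the right, from the fits without and with the replicate number as a term. Filled points have an adjusted p under 0.05: Il1b on the left, at -2.77, and Il1a, Il1b and Il18bp on the right, at 1.48, 1.06 and -0.74, all with the term.

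Whether the LPS response itself differed after IL-4 was tested directly, as 1 contrast of the 4 group means. No tested gene was called, so that the shares called higher and lower were 0% and 0%. At an unadjusted p under 0.05 there were 120 genes higher and 202 lower, 2 of them among the 7, Il1a and Il1b. Il1b responded more steeply after IL-4 by 3.92 ± 0.82 (SE) on the log2 scale, adjusted p = 1.0 by edgeR's quasi-likelihood test, 0.148 with the term and 0.00275 by DESeq2. Il1a differed by 3.04 ± 1.24, a value that was 2.15 without IL-4 replicate 1 and 6.48 without IL-4 replicate 3. For Il1b the lower start in IL-4 and the higher level under LPS each entered this difference. For Il1a the 9 reads in control and 3 in IL-4 also entered it, though a difference at rest was not detectable at this depth. Il18 differed by 1.04 ± 0.45, Il18bp by -0.22 ± 0.19, Il1rap by -0.30 ± 0.28 and Il1rn by -0.31 ± 0.66, the last turning to 0.59 without LPS replicate 1.

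Levels of different genes were compared per kilobase of the deposited gene length. In control cells Il1rn was highest at 11.6 ± 0.83 CPM per kilobase (SD, n = 2), followed by Il18bp at 5.63 ± 0.40 and Il18 at 2.42 ± 0.10. Il1r2 at 2.03 ± 2.07, Il1b at 1.01 ± 0.55 and Il1rap at 0.638 ± 0.078 did not differ from each other beyond the spread. Neither did Il1r2 from Il18. Il1a at 0.207 ± 0.080 and Il1r1 at 0.0641 ± 0.025 came last, below both libraries of Il1rap. In IL-4 the order was Il1rn at 7.45 ± 0.89, Il18bp at 3.94 ± 0.19, Il18 at 1.13 ± 0.11, Il1rap at 0.755 ± 0.14 and Il1r2 at 0.681 ± 0.49. Below them came Il1r1, Il1b and Il1a at 0.176, 0.142 and 0.0689, each within 1 SD of the next of these genes. Without LPS the inhibitors thus stood above the ligands on this scale.

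Under LPS the order of the ligands and the antagonist changed on this scale. In LPS Il1b stood at 622 ± 125 CPM per kilobase, Il1rn at 300.2 ± 197 and Il1a at 165 ± 46, where Il1rn and Il1a overlapped. In IL-4 then LPS Il1b stood at 1353 ± 604, Il1a at 472 ± 200 and Il1rn at 156 ± 73, and these 3 did not overlap. Il18bp and Il18 stood at 28.4 ± 1.3 and 21.7 ± 7.0 in LPS and at 17.0 ± 0.90 and 20.9 ± 4.2 in IL-4 then LPS, within 1 SD of each other in both groups. Il1r2 and Il1rap stood at 3.44 ± 2.6 and 3.20 ± 0.48 in LPS and at 1.12 ± 0.91 and 3.08 ± 0.19 in IL-4 then LPS, and Il1r1 was last in both at 0.0879 ± 0.094 and 0.0688 ± 0.097.

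The ratio of an inhibitor to its ligand within 1 library needs no scaling between libraries. It was taken as the log2 ratio of reads per kilobase after adding 0.5 reads, and it is described without a test, because 2 against 2 libraries cannot reach a p below 0.333 in an exact permutation test. The log2 ratio of Il1rn to Il1b was 3.09 and 4.08 in control, -0.69 and -1.73 in LPS, 5.87 and 5.24 in IL-4, and -3.10 and -3.16 in IL-4 then LPS. No pair of groups overlapped. Per kilobase of the deposited lengths, Il1rn thus exceeded Il1b in every library without LPS and lay below it in every library with LPS. The sign in the LPS group depends on the deposited Il1rn length of 5535 bases, and transcript lengths in these cells were not measured. Raw reads of Il1rn and Il1b there were 17376 and 9682 in replicate 1 and 6450 and 7369 in replicate 3. The deposited lengths cancel in differences between groups. IL-4 then LPS lay 1.92 below LPS on the log2 scale, a 3.78-fold lower ratio, with differences of -2.41 and -1.43 within numbers 1 and 3. IL-4 lay 1.97 above control.

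The other pairs moved likewise under LPS. The log2 ratio of Il1rn to Il1a was 5.41 and 5.97 in control, 1.15 and 0.28 in LPS, 8.24 and 5.65 in IL-4, and -1.56 and -1.67 in IL-4 then LPS, which lay 5.04-fold below LPS. Control and IL-4 overlapped for this pair, and the 8.24 has no Il1a read behind it and is set by the 0.5 reads added. The log2 ratio of Il18bp to Il18 was 1.16 and 1.22 in control, 0.71 and 0.13 in LPS, 1.61 and 1.90 in IL-4, and -0.14 and -0.44 in IL-4 then LPS. That last group lay 1.63-fold below LPS and was the only one in which Il18 exceeded Il18bp per kilobase in both libraries. This sign also depends on the deposited lengths, as raw reads of Il18bp and Il18 there were 340 and 127 in replicate 1 and 412 and 190 in replicate 3. The 2 interleukin 1 ligands kept a closer proportion to each other: the log2 ratio of Il1b to Il1a was 1.93 ± 0.11 (SD, n = 2) in LPS and 1.51 ± 0.04 in IL-4 then LPS.

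**Figure D3:**
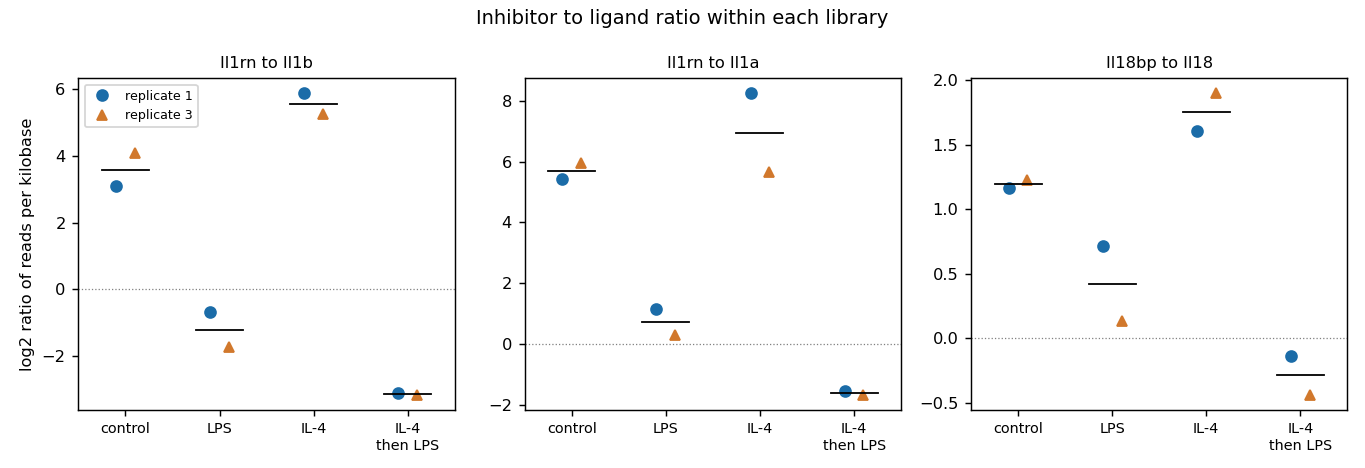
Log2 ratio of reads per kilobase of inhibitor to ligand in each of the 8 libraries, with circles for replicate 1, triangles for replicate 3 and a bar at the mean of the 2 libraries. The dotted line marks equal reads per kilobase. IL-4 then LPS is lowest in all 3 panels, with means of -3.13 for Il1rn to Il1b, -1.62 for Il1rn to Il1a and -0.29 for Il18bp to Il18.

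Several genes that process or release the precursors rose with LPS. Of 14 tested of 17 listed, 7 were called higher and 3 lower in LPS against control, beside 21.8% and 18.6% of all tested genes. In IL-4 then LPS over IL-4 the counts were also 7 and 3, beside 20.7% and 18.6%, with Pycard in place of Nlrc4 among those lower. With the replicate number as a term they were 7 and 4, adding Capn2, and 7 and 5, adding Nlrc4 and Capn2. In LPS against control the term also raised the calls over all tested genes, from 4942 to 6574. The matching total for IL-4 then LPS over IL-4 is not given here. The median log2 fold change was 0.70, against -0.01 over all tested genes. Casp1, which cleaves both precursors, rose by 2.08 ± 0.14 (SE) on the log2 scale. Casp4, the sensor of cytosolic LPS, rose by 3.64 ± 0.22, and the inflammasome sensors Nlrp3 and Aim2 rose by 3.61 ± 0.34 and 2.81 ± 0.14. Gsdmd, whose product forms the membrane pore, rose by 1.46 ± 0.28. Nlrp1b, Nlrp1a and Nlrc4, other inflammasome sensors, fell by 2.79, 1.61 and 0.82. None of the 14 was called in IL-4 against control, where 0.0572% of tested genes were called higher and 0.00817% lower. None was called in IL-4 then LPS against LPS either, where the shares were 0.049% and 0.0163%. At such shares the absence of calls says nothing particular about these 14 genes. With the replicate number as a term, 0.858% of tested genes were called lower in IL-4 against control, among them Nlrp3. It had 567 and 696 reads in control and 320 and 372 in IL-4.

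Of the 20 genes of receptor signalling, all tested, 10 were called higher and 4 lower in LPS against control, beside 21.8% and 18.6% of all tested genes. The counts were also 10 and 4 in IL-4 then LPS over IL-4, beside 20.7% and 18.6%, with Traf6 in place of Chuk among those higher. With the replicate number as a term they were 12 and 4, adding Traf6 and Ikbkg, and 11 and 4, adding Chuk. Calls over all tested genes in LPS against control rose with the term as well, from 4942 to 6574. For IL-4 then LPS over IL-4 that total is not given here. The adaptor Myd88 rose by 2.60 ± 0.18 (SE) on the log2 scale, the ubiquitin ligase Peli1 by 3.73 ± 0.34, and the NF-kB gene Nfkb1 and its inhibitor Nfkbia by 3.31 ± 0.30 and 3.38 ± 0.48. The kinases Irak1 and Irak4 fell by 0.43 and 0.60, and Peli2 fell by 2.44. None of the 20 was called in IL-4 against control or in IL-4 then LPS against LPS, with or without the term. With the term, 1.5% of all tested genes were called higher and 0.858% lower in the first, and 1.08% and 1.22% in the second. Without it the shares were 0.0572% and 0.00817%, and 0.049% and 0.0163%. At such shares the absence of calls says nothing particular about these 20 genes.

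Other members of the family were scarce. Of 6 other ligands in the table, 2 were tested, and both were called higher in LPS against control. Both passed the filter on low counts through the groups given LPS, where they are high, so this count was largely set by the filter. Il33 had 0 reads in both control libraries and 58 and 7 in LPS, and Il1f9, which encodes interleukin 36 gamma, had 4 and 2 in control and 63 and 22 in LPS. Of 7 other receptors, 3 were tested. Il18rap, the accessory chain for Il18, rose by 2.78 ± 0.95 (SE) on the log2 scale in LPS against control, adjusted p = 0.0497 by edgeR's quasi-likelihood test. Its partner Il18r1 had 2 reads in 1 IL-4 library and 0 in the other 7 libraries. Il1rl2, the receptor for interleukin 36, was called lower in IL-4 then LPS over IL-4, from a mean of 10.3 to 5.02 CPM, a log2 fold change of -1.03 ± 0.27 (SE). Without the term, 20.7% of all tested genes were called higher and 18.6% lower in that comparison. There the term raised the calls among other ligands from 1 to 2 and among other receptors from 1 to 2, adding Il33 and Il18rap. The share of all tested genes called with the term in that comparison is not given here, so the added calls are description only.

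**Figure D4:**
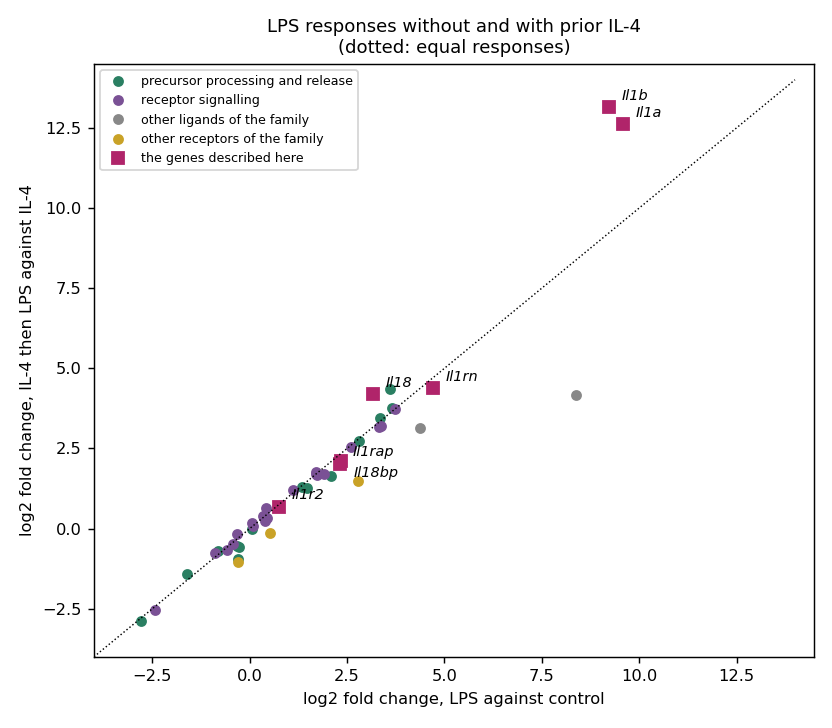
Log2 fold change of LPS against control on the x axis and of IL-4 then LPS over IL-4 on the y axis for the 7 tested genes (squares) and the genes of the 4 pathway lists (circles), with a dotted line where both are equal. Il1b, at 9.23 and 13.15, and Il1a, at 9.57 and 12.61, lie above the line, and Il1rn, at 4.70 and 4.38, lies just below it.

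Markers of other cell types were looked at because neutrophils and other cells can also hold Il1b. Of 10 neutrophil and granulocyte markers, Ly6g, Retnlg and Elane had no read in any library. The summed level of the 10 was 71.0 to 118 CPM in control, 160 to 178 in LPS, 54.5 to 105 in IL-4 and 109 to 139 in IL-4 then LPS, most of it from Csf3r and Mmp8. S100a8 had 9 to 40 reads per library. Stromal markers summed to 4.15 to 6.23 CPM in control and 18.3 to 47.1 in LPS, where Pdgfrb alone went from a mean of 0.921 to 27.7 CPM, while Col1a2 had 1.77 and 1.25 and Dcn 1.03 and 1.04. Dendritic cell markers summed to 1.21 to 1.58 and 7.18 to 12.3 CPM, most of it in LPS from Xcr1, at a mean of 6.07. Endothelial markers summed to 304 to 351 CPM in control and 335 to 388 in LPS. Of these, Kdr went from a mean of 39.8 to 140 CPM and Cdh5 from 0.427 to 2.65. Vwf went from 286 to 219 and Pecam1 from 0.705 to 0.415. Lymphocyte markers summed to 0.396 to 0.433 CPM in control and 8.29 to 21.7 in LPS, all from Lck. The part of these markers in the LPS differences of the 8 genes was not tested. In bulk RNA, fewer cells of a type and less RNA per cell cannot be told apart.

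The genes most like each of the 7 in pattern were found among 11138 protein-coding genes by the root mean square difference of centred log2 CPM over the 8 libraries. Il1a was nearest to Edn1, at 0.52, then to Nos2 and Ptgs2, and Il1b was nearest to Nos2, at 0.68, then to Edn1 and Ptgs2. Edn1 encodes endothelin 1, Nos2 the inducible nitric oxide synthase and Ptgs2 the inducible cyclooxygenase. Il18 was nearest to Nlrp3, at 0.28, followed by Rnf24 and Eif2ak2. Il1rn was nearest to Tnfsf9, at 0.30, and Il18bp to Slc44a1, at 0.18. Il1rap had the closest neighbour of all, Cd44 at 0.12, and Il1r2 was nearest to Ifitm6, at 0.42. These are descriptions over 8 libraries that share the LPS difference.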

How the data were processed

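Raw read counts per gene, made by the authors, were deposited as whole numbers for 54532 genes. The tools named, per the submitters' processing notes, are HISAT2, StringTie and HTSeq with the build mm10; versions and strandedness are not given in the sources used here. The table's 6 further columns of samples were not used. Genes were kept with filterByExpr of edgeR 4.0.16 in R 4.3.3 (12234 of 54532, with 33464 genes without a read), scaled with TMM and tested with the quasi-likelihood test on all 8 libraries with 1 mean per group (4 residual and 3.78 prior degrees of freedom, common dispersion 0.0402). P-values were adjusted by Benjamini-Hochberg over 12234 genes, with a threshold of 0.05, and the steps were tested on simulated data. At 7924932 to 9431852 counts per library, no fold is given where both groups compared hold 3 reads or fewer over their 2 libraries; exact 95% intervals cover counting error only. DESeq2 1.42.0 was an alternative, with other scalings, filters and left-out libraries.

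The replicate numbers were checked for pairing. Differences between numbers 3 and 1 correlated between groups at r = 0.343 to 0.524 over 12234 genes (genes are not independent replicates), and the sex-linked genes split by number in all 4 groups, so the number was taken as a shared source and fits with it as a term are printed where calls changed. The libraries of a group differed beyond counting noise, with chi-square per degree of freedom from 20.2 to 25.8.

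All 8 genes are named with their values, with the 3 genes nearest in pattern to each considered and pathway genes taken from listed sets. Members and lists were chosen with earlier results of these data known. Marker lists of lymphocytes (summed at most 21.7 CPM), endothelial cells (304 to 475 CPM) and mast cells (2.76 to 18.2 CPM) were also summed. RefSeq windows matched all 8 genes.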

Additional observations from a re-analysis of the deposited data

Results flagged for a closer look

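The effect of IL-4 on Il1b went in opposite directions at rest and under LPS, within both replicate numbers. The log2 difference of IL-4 against control was -3.61 and -1.60 within numbers 1 and 3, resting on 31 and 12 reads in control and 2 and 4 in IL-4, and that of IL-4 then LPS against LPS was 1.32 and 0.79. The difference between these effects was 3.92 on the log2 scale, with an adjusted p of 1.0 by edgeR's quasi-likelihood test over all genes.

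Il1a and Il1r1 met the same criterion only nominally, because the direction of 1 effect rests on very few reads. For Il1a the difference between the effects was 3.04, with an adjusted p of 1.0 by edgeR's quasi-likelihood test, and its values under LPS were 1.63 and 1.31. At rest it had 6 and 3 reads in control and 0 and 3 in IL-4, so that no direction at rest could be read in number 3. For Il1r1 the difference of -2.29 was not tested. It rests on 7 and 1 reads in LPS and 6 and 0 in IL-4 then LPS, so that no direction under LPS could be read. Groups of 2 libraries were not screened for outlying samples.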

How the results depend on the processing

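The 6 genes higher under LPS, with and without prior IL-4, remained called in every alternative run. The other counts moved with the processing, and the cause was not tested. With no filter on low counts, 360 genes were called in IL-4 against control (2 of the 8 genes lower), 397 in IL-4 then LPS against LPS (2 higher, 3 lower) and 53 for the difference between the LPS responses (1 higher), against 8, 8 and 0 as reported. DESeq2 gave 109 (1 lower), 119 (1 higher, 1 lower) and 5 (1 higher). The fit with the replicate block gave 288 (1 lower), 281 (2 higher, 1 lower) and 1, and changed no call of the 8 genes in the LPS comparisons. The compared groups alone gave 5 genes in IL-4 then LPS against LPS. Leaving out 1 library gave 4 to 9 genes in IL-4 against control and 3116 to 4799 in IL-4 then LPS over IL-4, lowest without IL-4 replicate 1. Adding 2 reads moved the ratio of Il1rn to Il1b, IL-4 then LPS minus IL-4, to -8.14.

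Signs turned 17 times among the log2 fold changes, all of genes not called. With library size alone, Il18 and Il1rap in IL-4 then LPS against LPS became 0.0172 and 0.00859, and Il1r2 in the difference between responses 0.0339. Leaving out 1 library gave Il1r2 -2.61 to 0.21 in IL-4 against control, -0.36 to 2.51 in LPS against control, -0.51 to 1.70 in IL-4 then LPS over IL-4, and -1.81 to 1.05 in the difference. It gave Il18 -0.35 to 0.33 and Il1rap -0.20 to 0.11 in IL-4 then LPS against LPS, and Il1rn -0.90 to 0.59 in the difference.

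Scaling by library size alone lowered the median of all genes by 0.62 in LPS against control, where 21.2% of calls were then higher rather than 53.9%, and by 0.56 in IL-4 then LPS over IL-4, where 22.5% were higher rather than 52.8%. Upper-quartile factors gave 36.6% and 36.0%. Low counts limit Il1r1, Il1r2 and the ligands without LPS.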
